A study of Mus musculus with 56 samples.

Results

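The genes described here encode the nucleus-encoded subunits of the mitochondrial respiratory chain and the complex I assembly factors that share their gene symbols. They were taken as every probe set of the array that names exactly 1 gene whose symbol starts with Nduf, Uqcr, Sdh (Sdha to Sdhd), Cox4i, Cox5, Cox6, Cox7 or Cox8. This gave 148 probe sets for 73 genes, of 18194 genes with such a probe set. Of the 73 genes, 34 encode complex I subunits, 4 complex II, 8 complex III and 10 complex IV. The other members are 8 complex I assembly factors (Ndufaf1 to Ndufaf8), 8 isoforms of complex IV subunits that other tissues or conditions use, and Cox7a2l, a factor that joins complexes III and IV.

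The study asked how livers respond to locked nucleic acid (LNA) gapmers of differing toxicity. These are short antisense strands with a DNA core that recruits RNase H and chemically locked sugars at both ends. Male mice of the outbred CD-1 strain, 6 to 8 weeks old when dosing began, received subcutaneous injections of 25 mg/kg in 10 mL/kg, or the same volume of the saline vehicle (DPBS). The sequences are known only by the labels' names: NTS-1 is called non-toxic, TS-2 toxic and HTS-3 severely toxic, and no source used here states which transcripts they target.

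After a single injection, livers were taken from 3 vehicle mice each at 8, 16 and 72 h, from 3, 4 and 3 NTS-1 mice, from 4, 3 and 4 TS-2 mice, and from 3 and 4 HTS-3 mice at 8 and 16 h. The HTS-3 mice meant for 72 h had died or were moribund from 48 h on. For these groups 10 mice were dosed, and the 3 or 4 livers with the most severe hypertrophy were profiled, so they are not random members of their group. In a separate study mice were injected on days 1, 4, 8 and 11 and livers taken on day 14, from 10 vehicle, 4 NTS-1 and 5 TS-2 mice. No mouse carried a genetic change, and each liver was hybridised to 1 array, 37 in the single-dose set and 19 in the 2-week set. One HTS-3 sample at 8 h (mouse 3) has a title and a description that give different times. It was kept at 8 h as titled.

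The respiratory chain lies in the inner mitochondrial membrane. Complex I oxidises NADH and complex II (succinate dehydrogenase, also an enzyme of the tricarboxylic acid cycle) oxidises succinate; both pass electrons to ubiquinone. Complex III moves them on to cytochrome c, and complex IV, cytochrome c oxidase, delivers them to oxygen. Complexes I, III and IV pump protons, and the gradient drives ATP synthase, complex V. Hepatocytes are rich in mitochondria and need this ATP for gluconeogenesis and urea synthesis.

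Array intensities are on a linear scale, changes are log2 differences, and a gene was called where the Benjamini-Hochberg adjusted p of limma's moderated test over all genes was under 0.05. Tests compared groups only within a probe set and within 1 of the sets. The marker sums and the choice of genes by level also set probe sets side by side. The sets were kept apart since the single-dose arrays share a lowest value of 4.56 and the 2-week arrays do not (their lowest values were 6.1 to 6.92). In the single-dose set all 73 members were tested, and 9 of them lay under an intensity of 32 on all 37 arrays: Cox7c, Ndufb4 and the tissue isoforms other than Cox7a1. These averaged 4.56 to 4.95, at or near the lowest value, so a fall could not have been measured. Only a rise well clear of the lowest value could have been. In the 2-week set 70 were tested, since Cox7b2, Cox7c and Ndufb4 did not pass the filter on low values. An intensity of 32 is a weaker mark of signal in that set. There 54.3% to 57.5% of probe sets reached it on an array, against 32.1% to 33.3% in the single-dose set. The 8 hepatocyte markers were at 32 or more on all 56 arrays. The p-values measure the spread between the mice of this study. In a bulk liver sample, fewer cells of a type and less RNA per cell cannot be told apart.

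Upstream sequence was available from RefSeq (GRCm38.p6) for 59 of the 73 genes, in 61 windows from 250 bases before to 50 bases after an annotated start. The windows were searched on both strands for the core letters bound by 4 factors that are known to drive nuclear genes of the respiratory chain. The NRF1 palindrome (the letters in capitals in the Ndufaf5 promoter below) was in 4 windows (6.56% against 0.97% of all 32851 windows), CCGGAAGT (GABP and other ETS factors) in 4 (6.56% against 3.89%), TCAAGGTCA (estrogen-related receptors) in 1 (1.64% against 0.42%) and AAGATGGC (YY1) in 7 (11.48% against 2.75%). A match describes the letters only. One promoter is shown for each motif that had a match no further than 30 bases past the start, from the member with the smallest adjusted p for TS-2 after 2 weeks; all 3 of these genes were among those called lower then. Each runs from 250 bases before to 30 bases past the start, and capitals mark the match. The Ndufaf5 stretch is chr2:140170396-140170675 (plus strand, NRF1 letters beginning 16 bases past the start), the Uqcrh stretch chr4:116075041-116075320 (minus strand, GABP letters read on the other strand, beginning 11 bases before the start) and the Ndufa3 stretch chr7:3617123-3617402 (plus strand, YY1 letters beginning 22 bases past the start).
Ndufaf5: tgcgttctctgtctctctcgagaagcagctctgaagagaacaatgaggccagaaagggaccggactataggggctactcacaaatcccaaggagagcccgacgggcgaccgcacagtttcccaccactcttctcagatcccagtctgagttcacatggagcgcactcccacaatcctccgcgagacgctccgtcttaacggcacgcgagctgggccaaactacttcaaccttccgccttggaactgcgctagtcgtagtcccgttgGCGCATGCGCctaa
Uqcrh: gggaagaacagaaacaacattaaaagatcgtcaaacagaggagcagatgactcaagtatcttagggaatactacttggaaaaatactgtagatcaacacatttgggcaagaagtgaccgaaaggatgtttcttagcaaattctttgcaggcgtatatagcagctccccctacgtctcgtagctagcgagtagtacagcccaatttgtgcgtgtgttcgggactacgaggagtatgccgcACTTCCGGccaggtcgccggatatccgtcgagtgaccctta
Ndufa3: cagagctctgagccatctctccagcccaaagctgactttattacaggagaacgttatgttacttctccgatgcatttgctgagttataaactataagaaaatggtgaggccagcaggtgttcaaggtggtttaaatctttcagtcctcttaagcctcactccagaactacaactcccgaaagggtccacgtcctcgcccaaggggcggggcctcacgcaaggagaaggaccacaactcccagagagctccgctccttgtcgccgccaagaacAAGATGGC

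Members with the same letters included called and uncalled genes. Of the NRF1 holders, Ndufaf5 was called lower after 2 weeks of TS-2, and Ndufaf4, Cox6a1 and Uqcrc1 were not called. Of the GABP holders, Uqcrh and Uqcr11 were called lower and Ndufs3 and Cox8a were not. The single window with the estrogen-related receptor letters was that of Sdhd, called lower. Of the YY1 holders, Ndufa3, Ndufa9, Ndufb8, Ndufc1 and Ndufs4 were called lower, and Ndufs7 and Ndufaf8 were not.

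After a single injection the median change of the respiratory chain genes lay near 0 in every group. The counts called were near or below the shares over all genes, so counts of 0 say little about the members. With 3 or 4 mice per group, small changes of single genes could have gone undetected. With NTS-1, no member was called at 8 h (0.610% of all genes were called), 16 h (0.148%) or 72 h (0%, with 793 genes at an unadjusted p under 0.05). With TS-2, no member was called at 8 h (0.0440% of all genes), 16 h (0.0165%) or 72 h (0.137%). With HTS-3, no member was called at 8 h (0.588%), and 1 was called at 16 h (7.35%). The numbers of members at an unadjusted p under 0.05 in these comparisons were 2, 0 and 3 for NTS-1, 3, 1 and 1 for TS-2 and 3 and 4 for HTS-3, in order of time. Leaving out the 8 tissue isoforms, the median change of the other 65 members ran from -0.05 (HTS-3, 8 h) to 0.05 (NTS-1, 16 h), and the median standard error of a member was 0.13 to 0.14.

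**Figure D1:**
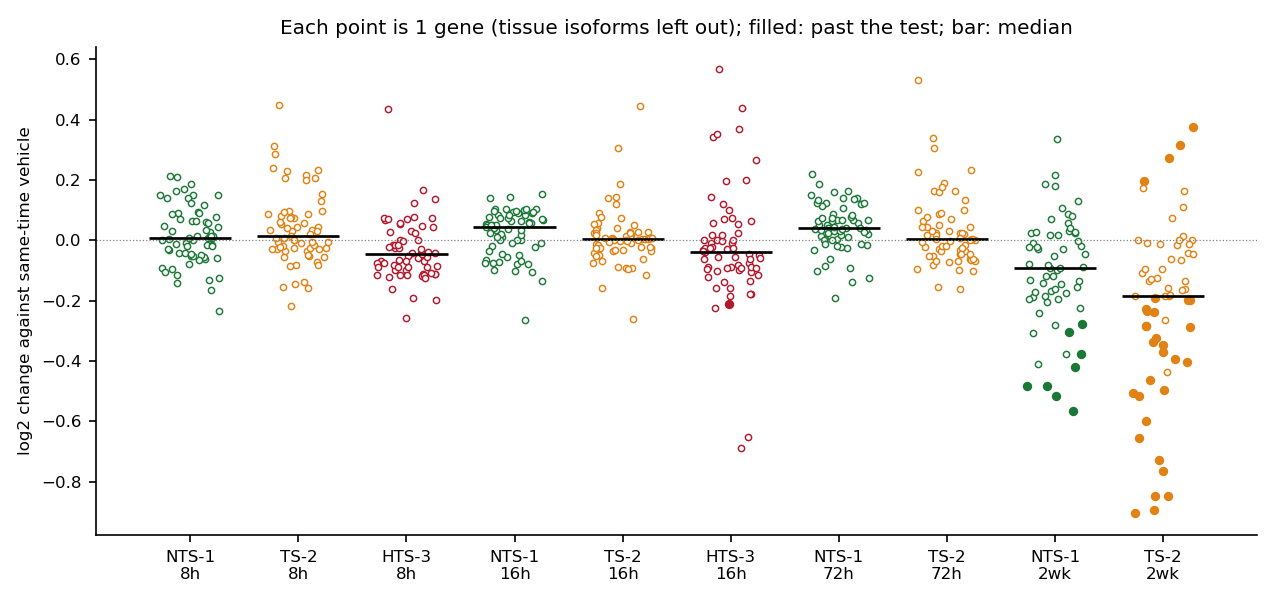
Log2 change of each member against vehicle mice of the same time (vertical axis), by treatment and time (horizontal axis), without the 8 tissue isoforms. Points are genes, filled where past the test, and bars are medians; the single-dose medians lie between -0.05 and 0.05, and after 2 weeks they are -0.09 for NTS-1 and -0.18 for TS-2.

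The gene called after a single injection was Ndufa9, an NADPH-binding accessory subunit in the matrix arm of complex I. Its intensities at 16 h were 8937, 9234, 9938 and 8673 in the HTS-3 mice and 9732, 10799 and 11457 in the vehicle mice. Of the HTS-3 mice, 1 lay above the lowest vehicle mouse, so the groups overlapped. Ndufa9 fell by 0.21 ± 0.065 (SE, n = 4 against 3, limma adjusted p = 0.0430). The call is at the edge of the threshold: it was lost without vehicle mouse 2 or 3, or without HTS-3 mouse 1, 2 or 4, with a filter at an intensity of 32 and with the compared groups fitted alone.

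Set against the other sequences at 16 h, Ndufa9 gave the same direction. NTS-1 mice had 10993, 10562, 10959 and 11712 and TS-2 mice 11435, 10962 and 10790, all above every HTS-3 mouse. HTS-3 was lower than NTS-1 by a log2 change of -0.27 ± 0.060 (limma adjusted p = 0.00352) and than TS-2 by -0.27 ± 0.065 (limma adjusted p = 0.00916). Both calls were lost with the compared groups fitted alone, and the second without TS-2 mouse 1. The 3 comparisons share the HTS-3 mice.

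Ndufaf1, a complex I assembly factor, was the only other member called among the single-dose comparisons of sequences. In HTS-3 mice at 16 h its intensities were 2854, 3346, 2793 and 3743, and in NTS-1 mice 2892, 1973, 1501 and 2158; the lowest HTS-3 mice lay below the highest NTS-1 mouse. The log2 difference was 0.61 ± 0.18 (limma adjusted p = 0.0299), and it was lost without NTS-1 mouse 2, 3 or 4 or HTS-3 mouse 2 or 4. HTS-3 against NTS-1 at 16 h thus called 2 members (9.65% of all genes) and HTS-3 against TS-2 at 16 h called 1 (5.95%). No member was called between HTS-3 and NTS-1 at 8 h (0.572%), HTS-3 and TS-2 at 8 h (0.264%), or TS-2 and NTS-1 at 8 h (0.506%), 16 h (0.231%) or 72 h (0.170%). At an unadjusted p under 0.05 there were 2, 0, 2, 1 and 6 members, in that order. With limma's array weights, 2, 1 and 2 members passed for HTS-3 against NTS-1 at 8 h, HTS-3 against TS-2 at 8 h and TS-2 against NTS-1 at 72 h. The shares of all genes called with these weights are not given here.

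One HTS-3 mouse at 16 h stood apart. The median deviation of the members from the vehicle mean was -0.33 in mouse 4, against 0.02, 0.09 and 0.05 in mice 1, 2 and 3. Its Actb 3'/5' log2 ratio, which compares probe sets at both ends of the actin mRNA, was 1.15. This was the lowest of all 37 single-dose arrays, that is the least excess of 3' over 5' signal. The 3 next lowest member medians of the single-dose set belonged to HTS-3 mouse 1 at 8 h (-0.19, ratio 1.35), vehicle mouse 3 at 8 h (-0.19, ratio 1.39) and TS-2 mouse 3 at 72 h (-0.18, ratio 1.55, rank 23 of 37 from the lowest). The part of RNA quality in these values was not tested. With HTS-3 mouse 4 left out the median change of the members at 16 h moved from -0.03 to 0.05.

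**Figure D2:**
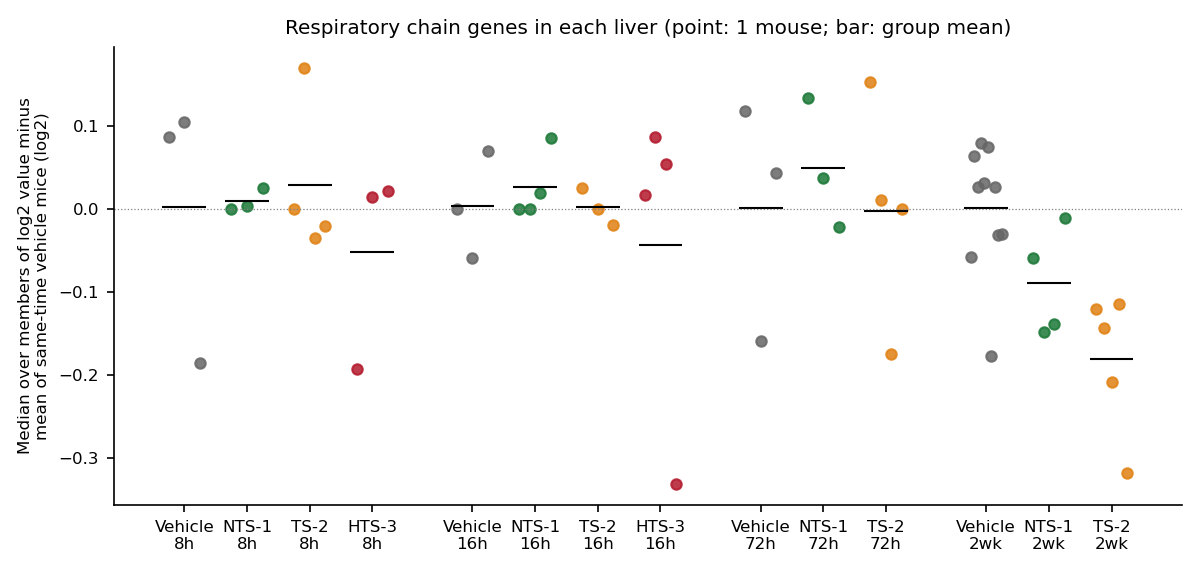
Median over the members of the difference between a mouse's log2 value and the mean of the vehicle mice of its time (vertical axis), by group (horizontal axis); points are mice and bars group means. HTS-3 mouse 4 at 16 h lies at -0.33, and the 5 TS-2 mice of the 2-week study lie between -0.32 and -0.11.

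Among members that did not pass the test at 16 h, 3 of those outside the tissue isoforms had changes of at least 0.5. Ndufs4, an accessory subunit of the NADH-oxidising module, had 4987, 4814, 6315 and 1674 in the HTS-3 mice and 7233, 5657 and 6486 in the vehicle mice (log2 change -0.69 ± 0.32, limma adjusted p = 0.246). Ndufaf2, an assembly factor, had 1108, 1316, 1669 and 490 against 2037, 1298 and 1678 (log2 change -0.65 ± 0.31, limma adjusted p = 0.249). In both genes mouse 4 had by far the lowest value. Ndufaf6, another assembly factor, had 2007, 4064, 2032 and 1431 against 1968, 1245 and 1350 (log2 change 0.57 ± 0.40, limma adjusted p = 0.566), with mouse 2 far above the rest. Sdha, the flavoprotein of complex II, had a log2 change of 0.44 ± 0.20 (limma adjusted p = 0.214). The difference between the HTS-3 changes at 16 h and 8 h was itself tested, and no member passed (1.32% of all genes did; 2 members had an unadjusted p under 0.05). For the difference between the TS-2 changes at 72 h and 8 h no member passed either (0.0440%; 0 at an unadjusted p under 0.05).

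Repeated dosing over 2 weeks gave another picture. With TS-2, 28 of the 70 members tested fell and 4 rose (37.4% of all 14454 genes tested were called, 14.6% as lower and 22.8% as higher). The median change of the members was -0.17, against -0.01 over all genes tested, and 59 of 70 lay below 0. In 12 members every TS-2 mouse lay below every vehicle mouse, which held for 3.62% of all genes tested. Complex I had 16 lower and 3 higher of 33, complex II 2 lower of 4, complex III 4 lower of 8, complex IV 3 lower of 9, the assembly factors 2 lower of 8 and the tissue isoforms 1 lower of 7. Among the 787 genes at or above the members' lower-quartile level, 245 were called lower and 171 higher, with a median of -0.08.

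**Figure D3:**
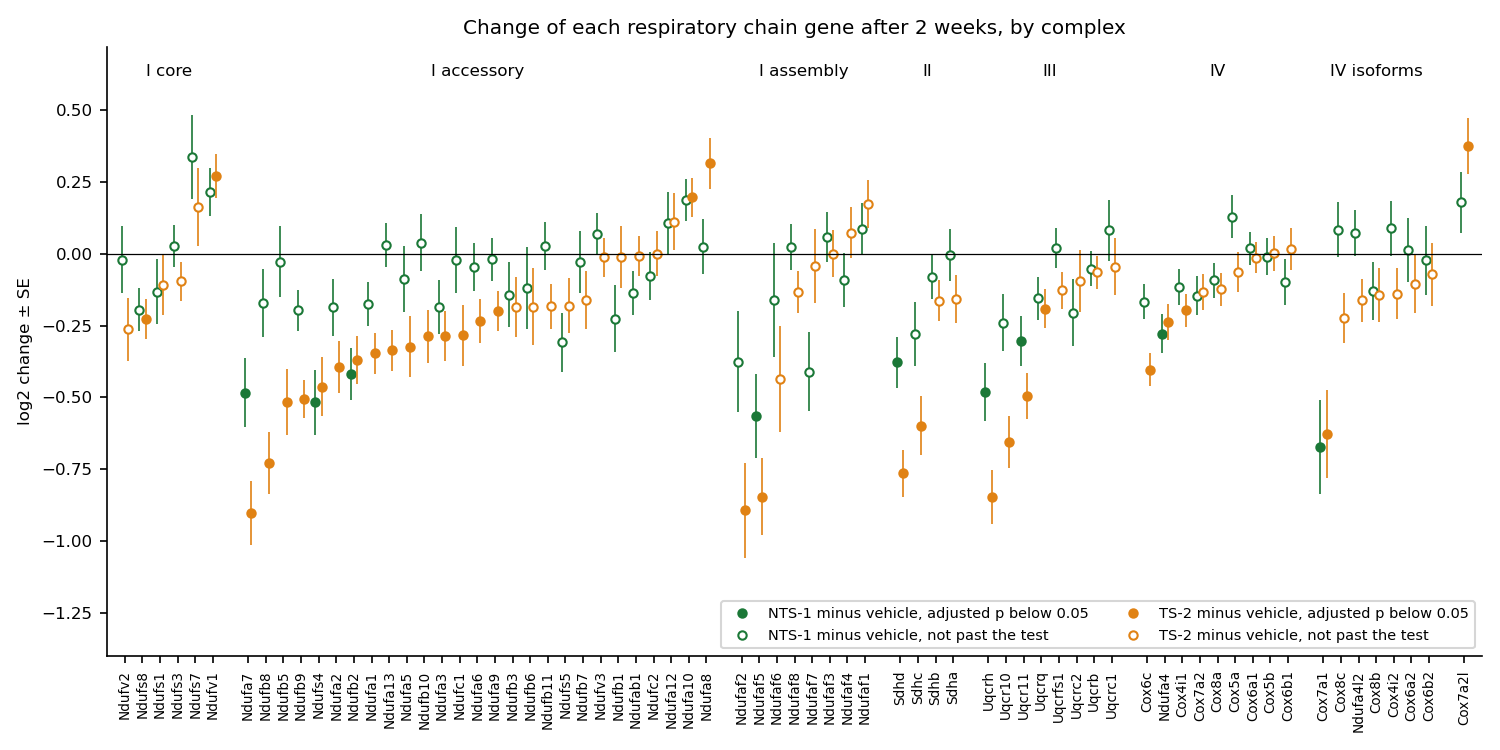
Log2 change ± SE after 2 weeks (vertical axis) of each of the 70 members tested (horizontal axis), grouped by complex, for NTS-1 (green, 4 mice) and TS-2 (orange, 5 mice) against the same 10 vehicle mice. Filled points passed limma's test; Ndufa7 has the largest fall with TS-2 (-0.90) and Cox7a2l the largest rise (0.37).

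In complex II the falls lay in the membrane anchor. Sdhd, which with Sdhc binds ubiquinone and heme in the membrane, had intensities of 7042, 8353 and 8907 (lowest, median and highest of the 10 vehicle mice), of 5581, 6377, 6523 and 6558 in the NTS-1 mice and of 3812, 4948, 4978, 5022 and 5272 in the TS-2 mice. All NTS-1 mice lay below all vehicle mice, and all TS-2 mice below all NTS-1 mice. The lowest value, 3812, was that of TS-2 mouse 5, whose members also had the lowest median deviation of the set (-0.32, against -0.21 to -0.11 in the other TS-2 mice and -0.18 in vehicle mouse 7). Sdhd fell by 0.76 ± 0.082 with TS-2 (SE, n = 5 against 10, limma adjusted p = 1.89e-06), the smallest adjusted p of any member.

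Sdhc had 2522, 2843 and 3699 in the vehicle mice and 1568, 1700, 1889, 2073 and 2434 in the TS-2 mice, with no overlap. Its log2 change was -0.60 ± 0.10 (limma adjusted p = 0.000166). The catalytic subunits overlapped between the groups: Sdha, which holds the flavin, had a log2 change of -0.16 ± 0.083 (limma adjusted p = 0.151) and Sdhb, which holds the iron-sulfur clusters, -0.16 ± 0.071 (limma adjusted p = 0.0789). The difference between anchor and catalytic subunits was not tested.

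In complex III the 4 members called lower by the probe set that stood for each gene are small subunits without redox centres. Uqcrh, the hinge protein at cytochrome c1, had 7712, 10191 and 11863 in the vehicle mice (lowest, median and highest), 6892, 7110, 7131 and 7849 in the NTS-1 mice and 4782, 5278, 5869, 6032 and 6230 in the TS-2 mice. Every TS-2 mouse was below every mouse of the other groups. Uqcrh fell by 0.85 ± 0.094 with TS-2 (limma adjusted p = 2.34e-06). Uqcr10 had 10192, 12043 and 12880 in the vehicle mice and 6066, 6757, 7427, 8356 and 9274 in the TS-2 mice, again without overlap, and a log2 change of -0.66 ± 0.091 (limma adjusted p = 1.98e-05).

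Uqcr11 changed by -0.49 and Uqcrq by -0.19, and both passed the test; Uqcrq lost its call under 11 of 25 alternatives, 8 of which leave out a mouse. The core proteins Uqcrc1 (-0.04) and Uqcrc2 (-0.10), the Rieske iron-sulfur protein Uqcrfs1 (-0.13) and Uqcrb (-0.06) did not pass. Of these, Uqcrc2 and Uqcrb each have a further bright probe set that did, at -0.28 (limma adjusted p = 0.00440) and -0.36 (limma adjusted p = 0.00881), so the calls do not separate the small subunits from the rest of the complex. All 8 complex III estimates were below 0.

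In complex I, 15 of 27 accessory subunits and 1 of 6 core subunits were called lower. Ndufa7, an accessory subunit of the matrix arm, had 4196, 5784 and 7024 in the vehicle mice, 3790, 3932, 4186 and 4314 in the NTS-1 mice and 2399, 2748, 2998, 3518 and 3660 in the TS-2 mice. The TS-2 mice lay below all others. The change of -0.90 ± 0.11 (limma adjusted p = 7.10e-06) is the largest fall of any member.

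Ndufb8, in the membrane arm, had 6751, 10068 and 11648 in the vehicle mice and 5617, 5745, 5958, 6090 and 6912 in the TS-2 mice. The groups touched through vehicle mouse 7, which at 6751 was the lowest control. The log2 change was -0.73 ± 0.11 (limma adjusted p = 3.85e-05). Other membrane arm subunits were lower by less: Ndufb5 (-0.52), Ndufb9 (-0.51), Ndufb2 (-0.37) and Ndufb10 (-0.29), as was Ndufs4 (-0.46) in the NADH-oxidising module. Ndufa13 (-0.34) and Ndufa9 (-0.20) passed too, Ndufa9 not without TS-2 mouse 2, 4 or 5 and Ndufb10 not without TS-2 mouse 2 or 5. The 7 remaining falls, named here after their values were seen, were Ndufa1, Ndufa2, Ndufa3, Ndufa5, Ndufa6, Ndufc1 and the core subunit Ndufs8, from -0.39 to -0.23. Of these, Ndufc1 lost its call under 13 of 25 alternatives, 11 of which leave out a mouse; Ndufa3 and Ndufs8 lost theirs without TS-2 mouse 5, Ndufa5 without TS-2 mouse 3 or 5 and Ndufa6 without TS-2 mouse 2 or 5.

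The subunits that rose included the one that oxidises NADH. Ndufv1, the core subunit with the flavin, had 5547, 6143 and 7543 in the vehicle mice and 6771, 7102, 7849, 7849 and 8273 in the TS-2 mice, with overlap. Its log2 change was 0.27 ± 0.078 (limma adjusted p = 0.00956). Ndufa8, on the outer face of the membrane arm, had 4119, 5468 and 5739 in the vehicle mice and 5477, 5846, 6916, 7385 and 7535 in the TS-2 mice, of which 4 lay above all controls (0.31 ± 0.088, limma adjusted p = 0.00791). Ndufa10 rose by 0.20 ± 0.068 (limma adjusted p = 0.0286), and lost its call without TS-2 mouse 1, 2 or 3. Ndufv1 lost its call with vehicle mice 1 to 5 alone. The core subunits Ndufs1 (-0.11), Ndufs3 (-0.10), Ndufs7 (0.16) and Ndufv2 (-0.26) and the acyl carrier Ndufab1 (-0.01) did not pass. For Ndufv2 both further bright probe sets passed, at -0.42 (limma adjusted p = 0.000392) and -0.26 (limma adjusted p = 0.00770), and for Ndufab1 a further probe set had the opposite sign (0.10).

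The assembly factors were divided. Ndufaf5, which hydroxylates a core subunit during assembly, had 360, 470.0 and 660 in the vehicle mice, 277, 315, 351 and 366 in the NTS-1 mice and 209, 223, 277, 302 and 354 in the TS-2 mice. Every TS-2 mouse was below every vehicle mouse, and the NTS-1 mice overlapped with both. Ndufaf5 fell by 0.85 ± 0.13 with TS-2 (limma adjusted p = 6.90e-05). Ndufaf2 had 284, 447 and 534 in the vehicle mice and 170, 188, 204, 276 and 369 in the TS-2 mice, with some overlap (-0.89 ± 0.16, limma adjusted p = 0.000272). The other 6 factors did not pass, with changes between -0.44 (Ndufaf6) and 0.17 (Ndufaf1).

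In complex IV, 3 of 9 members tested were called lower. Cox6c had 14495, 15822 and 17079 in the vehicle mice, 13842, 13884, 14355 and 14524 in the NTS-1 mice and 11462, 11616, 11949, 12000 and 13050 in the TS-2 mice, all below the other groups. It fell by 0.40 ± 0.057 (limma adjusted p = 2.22e-05). Ndufa4, once counted as a complex I subunit, changed by -0.24 and Cox4i1 by -0.20, and both passed. Cox5a (-0.06), Cox5b (0.00), Cox6a1 (-0.01), Cox6b1 (0.02), Cox7a2 (-0.13) and Cox8a (-0.12) did not. Further bright probe sets of Cox5b (-0.30), Cox7a2 (-0.26) and Cox8a (-0.15) did pass (limma adjusted p = 0.0105, 0.00666 and 0.0428).

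Cox7a2l, which ties complex III to complex IV in supercomplexes, had the largest rise. Its intensities were 2438, 3096 and 3588 in the vehicle mice, 3282, 3363, 3410 and 3484 in the NTS-1 mice and 3130, 3537, 3927, 4362 and 4622 in the TS-2 mice. Of the TS-2 mice, 3 lay above every other mouse and 2 within the vehicle range. The log2 change was 0.37 ± 0.099 (limma adjusted p = 0.00523).

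**Figure D4:**
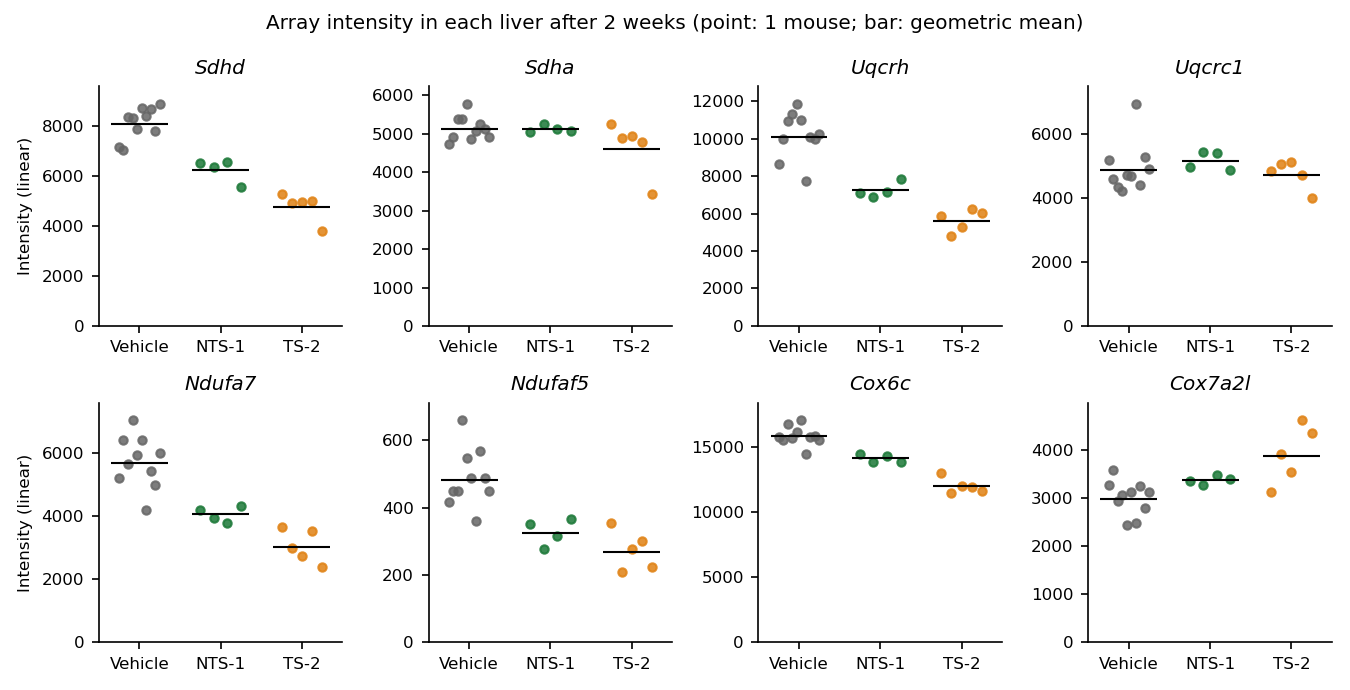
Array intensity on a linear scale (vertical axis, from 0) of 8 members in each mouse of the 2-week study (horizontal axis, vehicle n = 10, NTS-1 n = 4, TS-2 n = 5). Bars are geometric means; for Sdhd the TS-2 mice lie between 3812 and 5272 and the vehicle mice between 7042 and 8907, while the groups overlap for Sdha and Uqcrc1.

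Of the tissue isoforms, 1 was called. Cox7a1, the form of heart and skeletal muscle, had 50.2, 77.2 and 98.4 in the vehicle mice, 41.2, 42.0, 42.3 and 56.5 in the NTS-1 mice and 36.2, 46.7, 47.9, 50.6 and 53.2 in the TS-2 mice, so both treated groups overlapped with the lowest vehicle mice. The log2 change was -0.63 ± 0.15 with TS-2 (limma adjusted p = 0.00281). These intensities are low for this set. Cox8b and Ndufa4l2, both at the lowest value on the single-dose arrays, averaged 42.5 and 73.5 on the 2-week arrays. The Cox7a1 values may thus lie near the background. None of the other 6 tested (Cox4i2, Cox6a2, Cox6b2, Cox8b, Cox8c and Ndufa4l2) passed, with changes of -0.22 to -0.07. Of the 7 skeletal muscle markers, 4 could be tested, and 1, Mylpf, was lower with TS-2 (14.6% of all genes were). The summed intensity of all 7 was 206 to 220.4 in the TS-2 mice, 220.3 to 243 in the NTS-1 mice and 200.1 to 253 in the vehicle mice, and 2 to 4 of them were at 32 or more in any mouse. The part of muscle in the Cox7a1 value was not tested.

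Other probe sets bore on the same genes. Of the 32 genes called with TS-2, 19 had further probe sets at 32 or more on all 19 arrays, 32 probe sets in all. Of these, 30 gave the same direction, 21 of them past the test, and 2 (both of Ndufs8) gave the opposite sign at 0.03 and 0.04. For Ndufa7 the 4 further probe sets gave -0.56, -0.68, -0.76 and -1.25, for Uqcrh -0.63, for Sdhd -0.66 and for Sdhc -0.63. For Ndufs4 both further bright probe sets failed the test, at -0.30 and -0.11.

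The members not called also depended on the probe set. Of the 38 tested and not called with TS-2, 20 had further probe sets at 32 or more on all 19 arrays, 30 in all. Of these 30, 11 passed the test, all as lower, in 10 genes: Ndufb6 (-0.32), Ndufb7 (-0.58), Ndufb11 (-0.38), Ndufv2, Ndufaf8 (-0.32), Uqcrb, Uqcrc2, Cox5b, Cox7a2 and Cox8a. Of the 30, 6 lay on the other side of 0 from the probe set taken, in Cox5b, Ndufab1 and Ndufaf4. With the mean over all probe sets of each gene, 34 members were lower and 4 higher.

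With NTS-1, 9 of 70 members fell and none rose after 2 weeks (4.91% of all genes were called, 3.04% as lower). The median change of the members was -0.09, against 0.01 over all genes. The 9 were Ndufa7 (-0.48), Ndufs4 (-0.52) and Ndufb2 (-0.42) of complex I, the assembly factor Ndufaf5 (-0.57), Sdhd (-0.38), Uqcrh (-0.48) and Uqcr11 (-0.30) of complex III, Ndufa4 (-0.28) of complex IV and the isoform Cox7a1 (-0.67). In 4 members, Ndufb2, Sdhd, Sdhc and Ndufa4, every NTS-1 mouse lay below every vehicle mouse (1.52% of all genes); Sdhc did not pass the test. Both treatments were set against the same vehicle mice.

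The NTS-1 result depended on which mice were used. In the order of the samples, vehicle mice 1 to 5 stand before the NTS-1 mice, and vehicle mice 6 to 10 before the TS-2 mice. No label names a batch. With vehicle mice 1 to 5 as the controls no member was called, and 1 gene of all 14454 was. With vehicle mice 6 to 10 it was 4 members. Leaving out NTS-1 mouse 1, 2, 3 or 4 left 5, 1, 1 and 3 members called. The members' median was -0.12 with vehicle mice 1 to 5 and -0.04 with vehicle mice 6 to 10. For TS-2 these controls gave 28 and 19 members lower and 2 and 3 higher, and leaving out each mouse left 20 to 34 lower, with the fewest without TS-2 mouse 5. Apart from NTS-1 with vehicle mice 1 to 5, the share of all genes called in these refits is not given here. The counts thus do not tell a loss particular to the members from one over all genes.

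TS-2 was also set directly against NTS-1. The treated groups stand in different stretches of the sample order. A difference between the stretches could not be told apart from one between the treatments. At 2 weeks 11 members were lower with TS-2 and none higher (21.0% of all genes were called, 6.93% as lower). These were Ndufb8 (-0.56 ± 0.13, limma adjusted p = 0.00697), Ndufb5 (-0.49), Ndufa7 (-0.42), Uqcr10 (-0.42), Sdhd (-0.39), Ndufa13 (-0.37), Uqcrh (-0.37), Ndufb10 (-0.33), Ndufb9 (-0.31), Cox8c (-0.31) and Cox6c (-0.24). For Sdhd the treated groups did not overlap, as the intensities above show. For Cox8c they did, and its call was near the threshold (limma adjusted p = 0.0479). Cox8c averaged 4.58 on the single-dose arrays, near their lowest value, and 389 on the 2-week arrays. Its 2-week values may thus be background. With these groups fitted alone, 2 members were called. Without NTS-1 mouse 1 or 4 it was 4 and 7, and without TS-2 mouse 2 or 5 it was 7 each. The shares of all genes called in these refits are not given here.

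The members lower after 2 weeks of TS-2 had a median change near 0 in other mice 72 h after a single injection. Of these 28 genes, 15 lay below 0 at 72 h, with a median of -0.02, and none had an unadjusted p under 0.05. Sdhd was 16858, 15301, 12973 and 13977 in the TS-2 mice and 17290.0, 13208 and 16111 in the vehicle mice at that time (log2 change -0.07). Uqcrh was 41257, 32334, 22951 and 33753 against 32753, 23026 and 35570.0 (log2 change 0.09). In both genes the groups overlapped widely. With HTS-3 at 16 h, 25 of the 28 genes lay below 0, with a median of -0.09. Of them 3 had an unadjusted p under 0.05 and 1, Ndufa9, was called. HTS-3 mouse 4, at -0.33 over all members, is part of that group. In the other single-dose comparisons with vehicle the median of the 28 ran from -0.05 (HTS-3, 8 h) to 0.06 (NTS-1, 16 h). The 8 assembly factors were all above 0 with TS-2 at 72 h, with a median of 0.21, and none passed the test. These genes share the same mice. Their median deviation was 0.57, 0.28, -0.21 and 0.30 in the TS-2 mice and 0.21, -0.39 and 0.01 in the vehicle mice, so the groups overlapped. In the same comparison 68 of 72 mitochondrial ribosome genes were also above 0, with none called.

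Complex V followed the members in direction. Of its 15 genes measured, 8 fell with 2 weeks of TS-2 and none rose (14.6% of all genes were called lower and 22.8% higher), with a median of -0.31; the largest changes were those of Atp5e (-0.82), Atp5j2 (-0.76), Atp5g2 (-0.48) and Atp5c1 (-0.48). With NTS-1, 4 of the 15 fell (3.04% of all genes): Atp5e, Atp5j, Atp5l and Atp5o. The gene for cytochrome c1, Cyc1, and that for cytochrome c, Cycs, were not called in either comparison with vehicle. Cyc1 was lower with TS-2 than with NTS-1 (log2 change -0.265, limma adjusted p = 0.0232), where 6.93% of all genes were called lower.

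Other mitochondrial lists had calls in both directions with TS-2, to be read against the same 14.6% lower and 22.8% higher over all genes. Of 72 genes of the mitochondrial ribosome, which translates the mitochondrial subunits of the chain, 30 fell and 9 rose (median -0.18), among them Mrps35 (-1.08), Mrpl50 (-0.89) and Mrpl12 (-0.85). Of 33 assembly factors for complexes I to IV that lie outside the symbol rule, 12 fell and 5 rose, led by Pet100 (-1.07), Uqcc1 (-0.92) and Cox16 (-0.83). Among 13 tricarboxylic acid cycle genes other than Sdha to Sdhd, 6 rose and 2 fell. Citrate synthase, Cs, rose by 1.01 ± 0.12 (limma adjusted p = 4.09e-06) and Ogdh by 1.18, and Suclg2, a subunit of succinyl-CoA ligase, fell by 1.68.

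Of 20 regulators of mitochondrial gene expression 3 were higher and 3 lower, near or below the shares over all genes (22.8% and 14.6%). The mitochondrial RNA polymerase Polrmt rose by 0.69, the corepressor Nrip1 by 1.28 and the helicase Twnk by 0.27. Nrf1 changed by -0.33, Tfam, which packages mitochondrial DNA, by -0.30, and Mterf3 by -0.38. With NTS-1, Polrmt rose by 0.51, Yy1 changed by -0.65 and Mterf3 by -0.46. Of 11 mitochondrial stress response genes 3 rose and none fell, near the 22.8% of all genes that were higher: the protease Lonp1 (0.87) and the chaperones Hspd1 (0.39) and Hspa9 (0.23). Of 10 antioxidant and uncoupling genes 3 rose, led by the outer membrane channels Vdac2 (0.55) and Vdac3 (0.39), and 2 fell, Txn2 (-0.42) and Txnrd2 (-0.66) of the mitochondrial thioredoxin system, again near the shares over all genes. With HTS-3 at 16 h, 7 of 72 mitochondrial ribosome genes (9.72%), 2 of 20 regulators, 1 of 11 stress response genes and 1 of 10 antioxidant and uncoupling genes were called, near the 7.35% of all genes, and 0 of 15 complex V genes; the largest changes were Fgf21 (1.47), Gabpb1, a subunit of the factor GABP (-1.38), Txnrd2 (-1.31) and Mrpl3 (-1.29).

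Markers of liver cell types were counted in the same 2-week mice, where 14.6% of all genes were lower with TS-2 and 22.8% higher. Of 8 hepatocyte markers 2 were higher and 1 lower, near those shares, with summed intensities of 148190 to 156950.0 against 146720.0 to 158770.0 in the vehicle mice. Of 7 sinusoidal endothelial markers 5 were lower (summed 1054 to 2604 against 2498 to 4218), of 10 macrophage markers 2 were higher, also near that share (summed 2721 to 17845 against 2065 to 8144) and of 8 stellate cell markers 3 were higher (summed 5852 to 11822 against 4427 to 7305). The endothelial markers called lower were Oit3, Clec4g, Stab1, Kdr and Stab2, and 6 or 7 of its 7 markers were at 32 or more in each TS-2 mouse. With NTS-1, 2 endothelial markers were lower and 1 hepatocyte marker was higher (4.91% of all genes were called, 3.04% as lower). The part of cell composition in the members' values was not tested.

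With HTS-3 at 16 h, where 7.35% of all genes were called, 3 of 10 macrophage markers were lower. The macrophage markers summed to 13282 to 19735 in the HTS-3 mice and to 19963, 21581 and 51091 in the 3 vehicle mice. The 6 neutrophil markers, none called, summed to 229, 479 and 27890 in these vehicle mice. In both lists the highest control thus lay far above the rest. Of the 7 endothelial markers 3 were lower and 1 higher. None of the 8 hepatocyte markers was called there. Hepatocyte markers summed to 335180.0 to 394460.0 in these HTS-3 mice and 318130.0 to 351350.0 in the vehicle mice of that time. The Actb ratio as a covariate left 4 members higher and 31 lower for TS-2 after 2 weeks, and gave 1 higher and 3 lower for HTS-3 at 16 h. The shares of all genes called with this covariate are not given here.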

How the data were processed

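Liver RNA of 56 mice was measured on Affymetrix arrays of 45101 probe sets. The deposited values are linear intensity values that the authors made with RMA, per the submitters' processing notes; no source used here gives its settings. Values were converted to log2. Genes came from the platform annotation: 34958 probe sets name 1 gene and were used. The probe set with the highest mean over all arrays stood for its gene. A gene was kept if it reached an array's 40th percentile on 3 or more arrays, which removed none from the single-dose set.

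Tests were run with limma (version 3.58.1, R version 4.3.3), each set fitted by itself over its 11 or 3 groups, and Benjamini-Hochberg adjustment over 18194 or 14454 genes at 0.05. The fit was tested on simulated data. The number of arrays limits the precision, and no 2 arrays were identical. Replicates are separate mice per the labels. Same-numbered mice did not deviate together in 17 of 18 comparisons, so the replicate block was an alternative; in TS-2 against vehicle at 8 h they did, and no member was called with or without it.

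Named members are all called ones, or the 8 largest changes in each direction, plus a fixed panel and the isoforms; list genes are named up to 4 per list. Others (Ndufs3, Ndufs7, Ndufv2, Cox6b1, Twnk, Tfam and the 7 further falls among them) were chosen after their values were seen. The members and lists were chosen with earlier results of these data known. Alternatives were the mean of probe sets, other filters, quantile normalization, array weights, groups fitted alone, the block, an Actb covariate, vehicle subsets, moving HTS-3 mouse 3, subunits only, current symbols, and leaving out each mouse; the fit over every probe set was added after seeing the data.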

Additional observations from a re-analysis of the deposited data

Results flagged for a closer look

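Within groups of 4 to 10 mice, 128 checks for a single mouse far from the others found 19, where about 1 in 20 arises by chance; mice of 1 group share these checks across genes. HTS-3 mouse 4 at 16 h was low over all members (-0.3317, others 0.02 to 0.09), over complex III (-0.2619) and over complex IV (-0.3207), as medians of log2 deviations from vehicle. TS-2 mouse 2 at 8 h was high over all members (0.1705, others -0.03 to 0) and over complex II (0.1066).

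Vehicle mouse 7 of the 2-week study was low over complex I (-0.2717), complex III (-0.1819) and complex IV (-0.1316). It had the lowest vehicle intensity of Ndufa8 (4119), Ndufb8 (6751), Ndufc1 (3394) and Uqcrq (14709), each apart from the other 9 mice. Without it TS-2 called 38 members rather than 32. Vehicle mouse 1 was high in Ndufa10 (4127, the other mice up to 3685) and vehicle mouse 5 in Ndufa3 (10187, the others up to 9069).

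TS-2 mouse 5 was low in Sdhd (3812, others 4948 to 5272), Ndufb9 (7889, others 9308 to 9656) and Ndufs8 (5124, others 5804 to 6102). NTS-1 mouse 3 was high in Cox7a1 (56.55, others up to 42.3), and NTS-1 mouse 4 was low in Ndufa4 (10913, others from 11595).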

How the results depend on the processing

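After 2 weeks of TS-2 the count of called members stayed between 22 and 38 under all 12 alternatives and 24 and 38 with each of the 15 mice left out (32 as reported), and 19 of the 32 genes kept their call under all 25 alternatives run for each gene. Among the 56 calls of members over all comparisons, no alternative changed the direction other than the 3 probe sets given at the end; uncalled genes were not followed in this way. Same-numbered mice were not treated as pairs, since the check for pairing was passed only by TS-2 against vehicle at 8 h. With the replicate block TS-2 after 2 weeks called 26 members (1 higher, 25 lower) and NTS-1 called 0 (and 0 of all genes). TS-2 against NTS-1 called 2 with it and HTS-3 at 16 h called 0. The NTS-1 count of 9 after 2 weeks became 16 with array weights, 0 with vehicle mice 1 to 5, 4 with vehicle mice 6 to 10, and 1 to 10 with a mouse left out. TS-2 against NTS-1 after 2 weeks (11) gave 2 with the groups fitted alone and 4 to 14 with a mouse left out. HTS-3 at 16 h against vehicle (1) gave 0 with a filter at 32, 0 with the groups alone, 4 with the Actb covariate and 0 to 1 with a mouse left out; at 8 h (0) a left-out mouse gave 0 to 1. HTS-3 against NTS-1 at 16 h (2) gave 1 over subunits only, 1 with array weights, 0 with the groups alone, 13 with the Actb covariate, 1 with the sample of unclear time moved to 16 h and 1 to 3 with a mouse left out. HTS-3 against TS-2 at 16 h (1) gave 2 with array weights, 0 with the groups alone, 3 with the Actb covariate and 0 to 1 with a mouse left out. Array weights also gave 2 members for TS-2 against NTS-1 at 72 h, 2 for HTS-3 against NTS-1 at 8 h and 1 for HTS-3 against TS-2 at 8 h, each 0 as reported. Among the further probe sets of called members, in a fit added after seeing the data, 1 of Ndufb2 was at 0.049 with NTS-1 (adjusted p = 0.797) and 2 of Ndufs8 at 0.0327 and 0.0426 with TS-2 (adjusted p = 0.753 and 0.665). For most of these alternatives the share of all genes called is not given here. The cause of these differences was not tested. In the single-dose set low signal limits Cox7c, Ndufb4 and the tissue isoforms other than Cox7a1.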
